A study of Arabidopsis thaliana with 12 samples.

Results

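The 10 genes described here encode NLR proteins, the intracellular immune receptors of *Arabidopsis thaliana*. They were taken by name from the 33610 genes of the RNA-seq count table: 5 helper NLR genes (*ADR1*, *ADR1-L1*, *ADR1-L2*, *NRG1.1* and *NRG1.2*) and 5 sensor NLR genes (*SNC1*, *RPP4*, *RPS4*, *RRS1* and *ZAR1*). RNA had been sequenced from leaves of wild type Columbia plants and of *trm5-1* plants, in 3 libraries per genotype that the labels number as replicates 2, 3 and 4. The labels give an age of 20 days for these leaf samples, whereas a legend of the study gives seedlings of 10 days. The *trm5-1* plants are in the Columbia background and homozygous for 1 T-DNA insertion in *TRM5* (AT3G56120), which encodes the enzyme that methylates guanosine and inosine next to the anticodon of tRNAs, and this is the only *trm5* allele sequenced. No pathogen or elicitor treatment is named for either genotype, and the time of day of harvest is not stated.

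Plant NLR proteins carry a nucleotide-binding domain and leucine-rich repeats, behind an amino-terminal domain that is either a coiled coil (CC) or a Toll/interleukin-1 receptor (TIR) domain. Sensor NLRs recognise pathogen effectors or the changes that effectors make to host proteins. TIR sensors act as enzymes that make small nucleotide signals, which are read by EDS1 bound to PAD4 or SAG101. The EDS1-PAD4 dimer works with the ADR1 helpers and the EDS1-SAG101 dimer with the NRG1 helpers. These helpers, like the activated CC sensor ZAR1, form pores in the plasma membrane that let calcium in. The mRNA level of several NLR genes is itself raised by immune signalling, and too much of some NLRs, *SNC1* being the classic case, stunts growth.

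Library totals ran from 14954658 to 26927531 counts, and the *TRM5* mRNA itself was lower in every *trm5-1* library (4.92, 2.75 and 4.08 CPM, read counts scaled to library size, in replicates 2, 3 and 4, against 13.3, 22.8 and 19.7 CPM in wild type). The summed level of 5 leaf markers lay between 16600 and 32900 CPM in wild type and between 5600 and 11800 CPM in *trm5-1*, with *CAB2* and *CAB3*, which encode chlorophyll-binding proteins, called lower. Wild type replicate 2 was closer to *trm5-1* than to the other wild type libraries for both, with *CAB2* at 47.0 CPM against 7910 and 4640 CPM in wild type replicates 3 and 4 and 13.5 to 17.7 CPM in *trm5-1*, and *CAB3* at 269 CPM against 8420 and 5020 CPM and 106 to 116 CPM. This did not hold for the other leaf markers, *RBCS1A*, *CA1* and *RCA*. For these wild type replicate 2 had 8420, 2770 and 5080 CPM, above every *trm5-1* library (at most 7020, 1300 and 3350 CPM). The 6 root markers summed to at most 1.41 CPM in any library, and *EXPA7* and *EXPA18* had 0 counts throughout. Whether the fall of the leaf markers has a part in the values of the NLR genes was not tested, and in bulk RNA fewer cells of a type and less RNA per cell cannot be told apart. In both genotypes the library numbered 4 mostly lay between the other 2. Of the 1506 genes whose wild type replicates 2 and 3 differed by more than 4-fold, replicate 4 lay between them in 1503, and in *trm5-1* it did so in 177 of 177. All 10 NLR genes had wild type replicate 4 between replicates 2 and 3 (81.3% of all genes tested did), as had 6 of 10 in *trm5-1* (68.4% of all genes). A weighted sum of the counts of replicates 2 and 3, fitted over all genes tested (wild type weights 0.785 and 0.561, *trm5-1* weights 0.747 and 0.423), came within 10% of the counts of replicate 4 for 82.6% of 15243 wild type genes and 82.2% of 14562 *trm5-1* genes with at least 100 counts there. For the 10 NLR genes the counts of replicate 4 differed from that sum by 0.272% to 4.37% in wild type and by 0.361% to 7.2% in *trm5-1*. The methods of the study speak of 3 biological replicates, but in these values replicate 4 is close to a mixture of the other 2, so the number of independent samples may be 2 per genotype. Each n = 3, SD, SE and p-value with all libraries counts it as a separate sample and may understate the error, and the p-values measure only the spread between these libraries. Results are therefore also given without replicate 4 of both genotypes.

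All 10 genes passed the filter on low counts and were tested among 19408 genes. One of them, *NRG1.2*, passed the test (the quasi-likelihood F test of edgeR, with p-values adjusted by Benjamini-Hochberg over all genes tested, adjusted p = 0.0113), and it was higher in *trm5-1*. Of all genes tested 11.4% were called in either direction and 4.3% were called higher, so 1 of 10 is near the background. At an unadjusted p under 0.05, 3 of the 10 genes passed (*ADR1*, *NRG1.1* and *NRG1.2*), against 32.7% of all genes. Log2 fold changes of *trm5-1* over wild type were above 0 for 9 of the 10 and ran from -0.21 for *RPP4* to 1.29 for *NRG1.2*. Their median was 0.44, with 0.59 for the helpers and 0.33 for the sensors, and the median over all genes tested was 0.00. In 5 of the 10 genes every *trm5-1* library lay above every wild type library, which 19.7% of all tested genes did. The 10 genes were chosen with earlier results of these data known, so these shares are not independent of them.

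**Figure D1:**
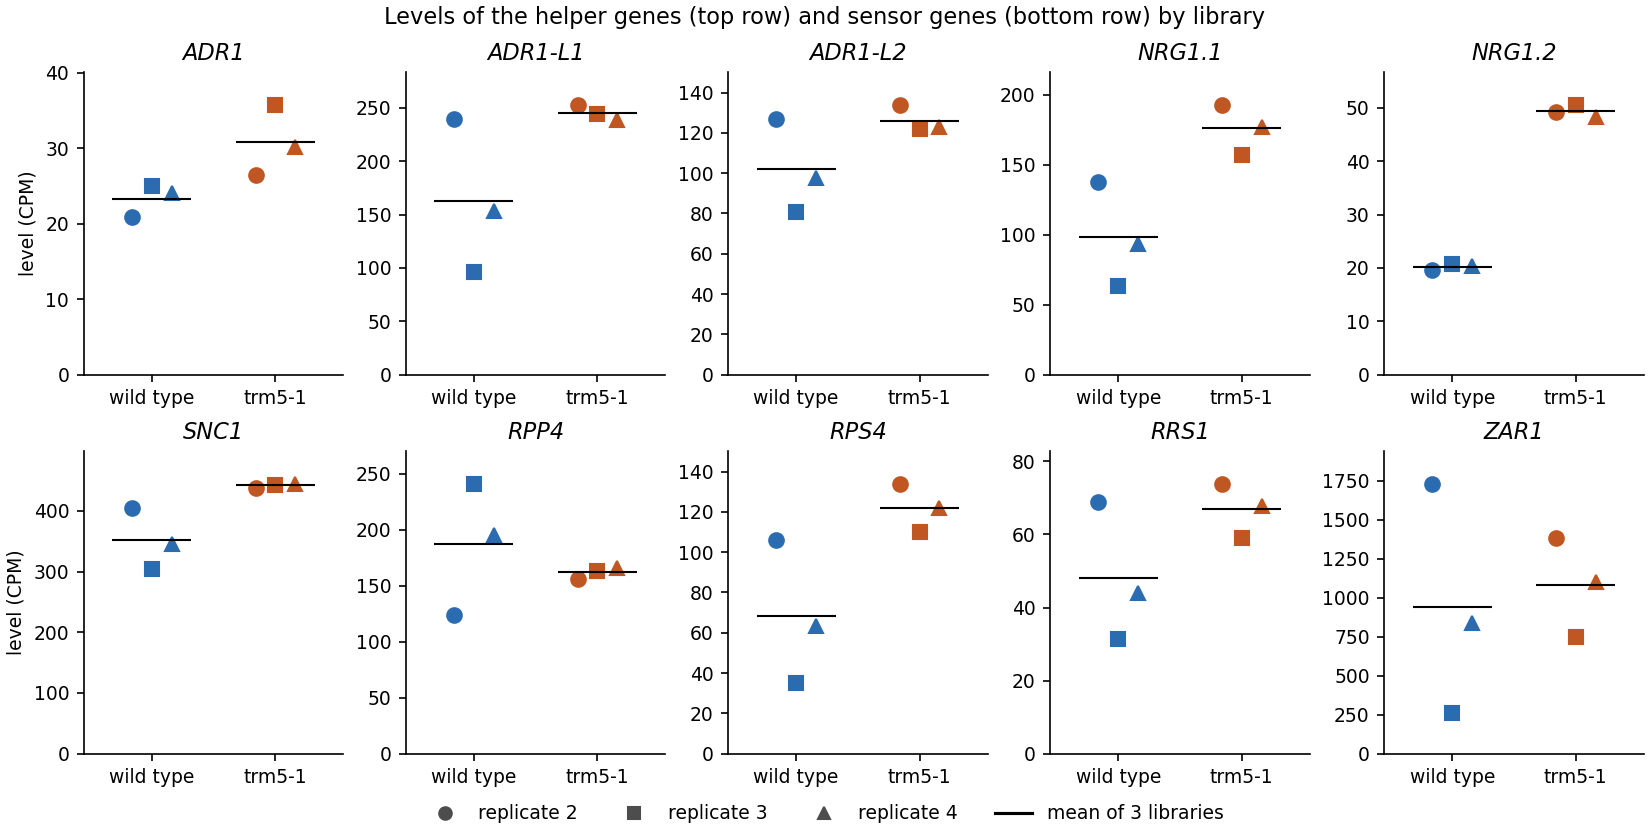
Level of each NLR gene in CPM (linear axis from 0) in the 6 libraries, with replicates 2, 3 and 4 as circles, squares and triangles and the mean of 3 libraries as a line. *NRG1.2* has tight groups near 20.2 and 49.4 CPM, whereas wild type replicates 2 and 3 of *ZAR1* stand at 1730 and 259 CPM.

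*NRG1.2* (AT5G66910) encodes 1 of the 2 full-length NRG1 helpers, proteins that act with EDS1 and SAG101 in the cell death that TIR sensors set off. Its level was 19.6, 20.7 and 20.3 CPM in wild type replicates 2, 3 and 4 and 49.2, 50.6 and 48.3 CPM in *trm5-1*. The groups were far apart and the libraries within each were nearly equal, at 20.2 ± 0.55 CPM (SD, n = 3 libraries) against 49.4 ± 1.17 CPM. Behind these levels were counts of 265, 585 and 542 (wild type) and of 1000, 1328 and 1304 (*trm5-1*), where the weighted sums of replicates 2 and 3 gave 536 and 1309 for replicate 4. For a gene this even between libraries, such a sum comes close whether or not replicate 4 is a mixture. The difference was 2.44-fold, or 1.29 on the log2 scale with a standard error (SE) of 0.11. It is also the NLR gene described here whose wild type libraries agreed best, with the highest level 1.06 times the lowest. Over the 15 alternatives its log2 fold change stayed between 1.17 and 1.33 and its adjusted p ran from 2.53e-21 (DESeq2) to 0.544. Among the fits that left out libraries, the call was lost without replicate 4 of both genotypes (adjusted p = 0.544), without wild type replicate 4 (adjusted p = 0.127), and without *trm5-1* replicate 4 (adjusted p = 0.118), 3 edgeR fits in which no gene at all was called, although 1721, 3934 and 4230 genes, in this order, had an unadjusted p under 0.05. It was also lost without *trm5-1* replicate 3 (adjusted p = 0.0535 by edgeR). With all libraries and the replicate number as a block, edgeR lost it too (adjusted p = 0.0962).

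*NRG1.1* (AT5G66900) encodes the other full-length NRG1 helper. It stood at 138, 63.6 and 93.5 CPM in wild type and at 193, 157 and 177 CPM in *trm5-1*. Every *trm5-1* library was above every wild type library, but wild type replicate 2 was 2.17 times replicate 3. With means of 98.3 ± 37.3 and 176 ± 18.1 CPM (SD, n = 3), the log2 fold change was 0.84 with a standard error of 0.30, and the gene did not pass the test (adjusted p = 0.113 by edgeR). The 2 proteins of 857 and 815 residues share 73.5% of aligned residues, and no 100-base stretch of the exons of one gene occurs in the other. Stretches of 50 bases shared between the pair make up 2.68% of *NRG1.1* and 2.56% of *NRG1.2*.

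The NRG1 genes lie in a row on the minus strand of chromosome 5. In TAIR10.1 coordinates, *NRG1.3* (AT5G66890) spans chr5:26712944-26714472, *NRG1.1* chr5:26714723-26717958 in 4 exon blocks and *NRG1.2* chr5:26718130-26721377 in 5. *NRG1.3* encodes a shorter protein of 415 residues that aligns with NRG1.1 at 65.9% identity. It was nearly silent in wild type, with 3, 18 and 6 counts in replicates 2, 3 and 4, and had 67, 169 and 158 counts in *trm5-1*. These counts correspond to 0.222, 0.638 and 0.224 CPM against 3.30, 6.45 and 5.85 CPM. Its log2 fold change of 3.77 (SE 0.53, adjusted p = 0.0233 by edgeR) passed the test. The gene passed the filter on low counts only because of the *trm5-1* libraries, so it could only be called higher. Differences in fold change between *NRG1.3* and its neighbours were not tested.

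The DNA before each of the 3 starts is shown because this row holds the called member and a called neighbour. W boxes, the sites that WRKY transcription factors bind in many defence promoters, were looked for by the letters TTGACC and TTGACT on both strands, and matches are in capitals. The stretches run 5′ to 3′ on the minus strand of TAIR10.1 and end at the base before the annotated start, *NRG1.2* with 250 bases (chr5:26721378-26721627), *NRG1.1* with the 171 bases up to *NRG1.2* (chr5:26717959-26718129) and *NRG1.3* with the 250 bases up to *NRG1.1* (chr5:26714473-26714722).
NRG1.2: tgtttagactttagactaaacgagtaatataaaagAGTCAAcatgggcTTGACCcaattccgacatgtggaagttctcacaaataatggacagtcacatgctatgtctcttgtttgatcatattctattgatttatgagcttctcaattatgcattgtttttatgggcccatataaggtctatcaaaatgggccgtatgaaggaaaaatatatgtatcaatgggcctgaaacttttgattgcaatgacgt
NRG1.1: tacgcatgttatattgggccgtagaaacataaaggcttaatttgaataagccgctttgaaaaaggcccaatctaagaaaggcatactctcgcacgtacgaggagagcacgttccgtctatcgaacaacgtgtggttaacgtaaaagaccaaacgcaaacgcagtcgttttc
NRG1.3: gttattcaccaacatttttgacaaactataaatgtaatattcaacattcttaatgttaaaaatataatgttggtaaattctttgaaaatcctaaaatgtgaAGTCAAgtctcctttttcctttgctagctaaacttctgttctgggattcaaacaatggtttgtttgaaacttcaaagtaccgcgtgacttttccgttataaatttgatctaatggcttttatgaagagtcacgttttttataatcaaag

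The letters occurred at 2 places before *NRG1.2*, with their first bases 202 and 215 bases before the start, at 1 place before *NRG1.3* and at none in the 171 bases before *NRG1.1*. Over 250 bases before each of the 10 genes, 3 had a match, *NRG1.2*, *SNC1* (1 match, 12 bases before the start) and *RRS1* (1 match, 107 bases before the start and inside the neighbouring gene *RPS4*). Among all 27444 nuclear protein-coding genes 28.4% had a match in the window of this length, and among the 154 genes that the annotation names as NLRs 42.9% had one. These are matches of letters, and no binding was measured.

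**Figure D2:**
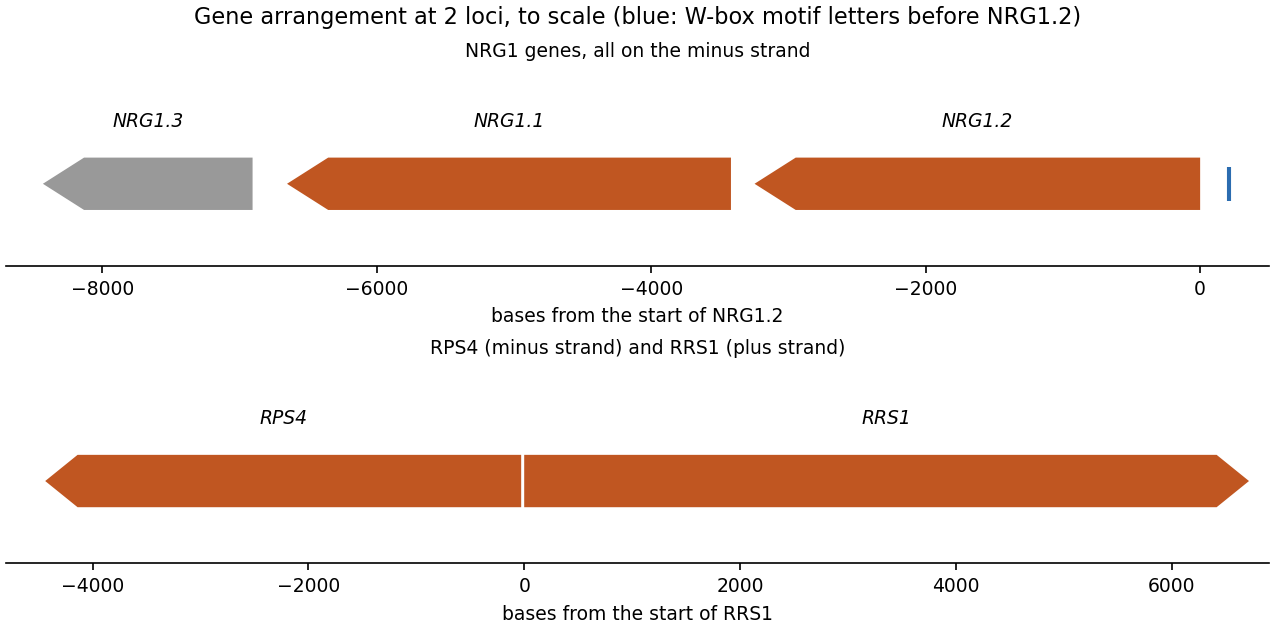
Gene bodies drawn to scale as arrows in the direction of transcription, with distance in bases on the x axis, for the NRG1 row (above) and the *RPS4* and *RRS1* pair (below). The gaps before *NRG1.3*, *NRG1.1* and *RRS1* measure 250, 171 and 27 bases, and the blue ticks mark the 2 matches of the W-box letters before *NRG1.2*.

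The ADR1 helpers act with EDS1 and PAD4 and are needed for the signalling of many TIR and CC sensors. *ADR1* (AT1G33560, chr1:12168768-12172119) was the least abundant of them, with 20.9, 25.0 and 24.1 CPM in wild type replicates 2, 3 and 4 and 26.5, 35.8 and 30.2 CPM in *trm5-1*. Its groups did not overlap, but the lowest *trm5-1* library was close to the highest wild type library. At 23.3 ± 2.18 against 30.8 ± 4.66 CPM (SD, n = 3) the log2 fold change was 0.40 with a standard error of 0.16 (adjusted p = 0.144 by edgeR).

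*ADR1-L1* (AT4G33300, chr4:16050456-16056526) had 240, 96.1 and 153 CPM in wild type and 253, 244 and 239 CPM in *trm5-1*. Wild type replicate 2 was as high as the mutant libraries and the other wild type libraries were lower, a spread of 2.5 times within wild type. At 163 ± 72.7 against 245 ± 6.76 CPM (SD, n = 3), the log2 fold change was 0.59 with a standard error of 0.34 (adjusted p = 0.274 by edgeR). Its exons overlap those of 3 genes on the other strand, by up to 691 bases (a long noncoding RNA, AT4G08785). The kit that the labels name for these libraries, TruSeq RNA v2, does not mark strand, so reads of these partners cannot be told from those of *ADR1-L1*.

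*ADR1-L2* (AT5G04720, chr5:1360589-1363907) had 127, 80.7 and 97.8 CPM in wild type and 134, 122 and 123 CPM in *trm5-1*. Again only wild type replicate 2 reached the mutant libraries. With means of 102 ± 23.3 and 126 ± 6.63 CPM (SD, n = 3), its log2 fold change was 0.31, with a standard error of 0.20 (adjusted p = 0.331 by edgeR). The proteins of *ADR1*, *ADR1-L1* and *ADR1-L2* share between 61.9% and 65.5% of aligned residues with each other and ADR1 shares 32.9% with NRG1.1. A related gene, *ADR1-L3* (AT5G47280), had 0 counts in all 6 libraries.

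The TIR sensors *SNC1* and *RPP4* belong to the RPP5 cluster of chromosome 4, a row of related genes that vary between accessions. *SNC1* (AT4G16890, chr4:9500271-9505972, minus strand) is known from a gain-of-function allele that gives dwarf plants with constant defence. It had 405, 304 and 346 CPM in wild type replicates 2, 3 and 4 and 438, 442 and 445 CPM in *trm5-1*. All mutant libraries were above all wild type libraries, and they were nearly equal to each other (442 ± 3.4 CPM, SD, n = 3, against 352 ± 50.9 CPM). The log2 fold change of 0.33 (SE 0.21, adjusted p = 0.312 by edgeR) did not pass the test.

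*RPP4* (AT4G16860, chr4:9488466-9495837, minus strand) gives resistance to the downy mildew oomycete. It was the member with a fold change below 0, with 124, 241 and 195 CPM in wild type and 156, 163 and 166 CPM in *trm5-1*. The mutant libraries lay inside the wild type range, and wild type replicate 2 was the lowest of all. Between 187 ± 58.8 and 162 ± 5.24 CPM (SD, n = 3) the log2 fold change was -0.21 with a standard error of 0.27 (adjusted p = 0.614 by edgeR), and it was 0.02 without wild type replicate 3. SNC1 and RPP4 share 68.1% of aligned residues, SNC1 and RPP5 85.2%, and RPP4 and RPP5 82%. Of the 100-base stretches in their exons, 3.05% for *SNC1* and 9.73% for *RPP4* occur elsewhere in the genome, and 21.2% and 29.1% of the 50-base stretches do. How the counting treated reads that fit several copies is not given in the sources used here, so the values of both genes are uncertain to that extent.

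The 6 other listed genes of the RPP5 cluster had no call by edgeR, with a median log2 fold change of 0.19. At an unadjusted p under 0.05, 2 of them were higher, where 32.7% of all genes passed in either direction. DESeq2 called 2 higher, where it called 8.86% of all genes higher. *RPP5* itself was at 248 CPM in wild type and 283 CPM in *trm5-1*, a log2 fold change of 0.19 with a standard error of 0.18. The largest fold change among these 6 genes was that of AT4G16960, with 26.3, 6.27 and 13.9 CPM against 43.1, 52.7 and 49.7 CPM (log2 fold change 1.65, SE 0.49, adjusted p = 0.0736 by edgeR). This gene, singled out after its values were seen, is the one that shares the most 100-base stretches with *RPP4*.

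*RPS4* and *RRS1* encode a pair of TIR sensors that work as a complex, in which a WRKY domain of RRS1 is the bait for effectors and RPS4 passes the signal on. *RPS4* (AT5G45250, chr5:18321764-18326175, minus strand) and *RRS1* (AT5G45260, chr5:18326203-18332920, plus strand) are transcribed away from each other, and their annotated starts are 27 bases apart, so that most of the upstream DNA of each lies inside the other. That gap, from which both genes are read outwards, is shown on the plus strand (chr5:18326176-18326202).
RPS4-RRS1 gap: tgagatttgagtggttgaatgtccaat

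*RPS4* had 106, 35.3 and 63.5 CPM in wild type and 134, 110 and 122 CPM in *trm5-1*. The mutant libraries were all above the wild type libraries, but wild type replicate 2 was 3.0 times replicate 3 and close to the mutant. Its means were 68.2 ± 35.5 and 122 ± 12 CPM (SD, n = 3), and its log2 fold change was 0.84 with a standard error of 0.39 (adjusted p = 0.188 by edgeR). *RRS1* had 69.0, 31.4 and 43.9 CPM in wild type and 73.9, 58.9 and 67.8 CPM in *trm5-1*. Here wild type replicate 2 lay inside the mutant range, and with means of 48.1 ± 19.2 and 66.9 ± 7.54 CPM (SD, n = 3) the log2 fold change was 0.48 with a standard error of 0.30 (adjusted p = 0.306 by edgeR). Both genes had the same order of libraries in each genotype, replicate 2 highest and replicate 3 lowest. A second, related pair next to each other on chromosome 5, *RPS4B* and *RRS1B*, had log2 fold changes of 0.77 (SE 0.21, adjusted p = 0.0625) and 0.54 (SE 0.13, adjusted p = 0.0527), and neither passed edgeR's test.

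*ZAR1* (AT3G50950, chr3:18935674-18938799, plus strand) encodes a CC sensor that detects effectors through partner kinases and assembles into a pentameric pore, the resistosome. It had 1730, 259 and 835 CPM in wild type and 1380, 750 and 1100 CPM in *trm5-1*. Wild type replicates 2 and 3 were the highest and the lowest of all 6 libraries, 6.67 times apart. Means were 941 ± 740 and 1080 ± 314 CPM (SD, n = 3). Their log2 fold change of 0.19 had a standard error of 0.67 (adjusted p = 0.863 by edgeR) and became -0.25 without wild type replicate 3 and -0.01 without *trm5-1* replicate 2. At this spread no difference between the genotypes was detectable. Its exons overlap those of 2 genes on the other strand, by 208 and 103 bases.

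The 2 wild type libraries that differed most were those numbered 2 and 3. Wild type replicate 2 was above replicate 3 for 7 of the 10 genes, by a log2 ratio of 0.42 (*SNC1*) to 2.74 (*ZAR1*), below it for *ADR1* (-0.26) and *RPP4* (-0.96), and nearly equal for *NRG1.2* (-0.08). In *trm5-1* the same ratios lay between -0.43 for *ADR1* and 0.88 for *ZAR1*. Without wild type replicate 2, 5 of the 10 genes were called higher where 16.2% of all genes were. These were *ADR1-L1* (log2 fold change 1.00, adjusted p = 0.0298), *NRG1.1* (1.18, adjusted p = 0.0156), *NRG1.2* (1.29, adjusted p = 0.00293), *RPS4* (1.32, adjusted p = 0.0201) and *RRS1* (0.85, adjusted p = 0.0257), all by edgeR. This is the library whose *CAB2* and *CAB3* levels were closer to *trm5-1* than to the other wild type libraries, unlike its *RBCS1A*, *CA1* and *RCA* levels. The part of this in the values of the NLR genes was not tested. The fit without wild type replicate 2 keeps wild type replicates 3 and 4, and replicate 4 is close to a mixture of replicates 2 and 3. Its wild type libraries may therefore not be independent, and its adjusted p-values may understate the error. Without replicate 4 of both genotypes no member and no other gene was called, and the members' log2 fold changes ran from -0.20 (*RPP4*) to 1.31 (*NRG1.2*). In that edgeR fit *NRG1.2* had an unadjusted p of 0.00641.

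**Figure D3:**
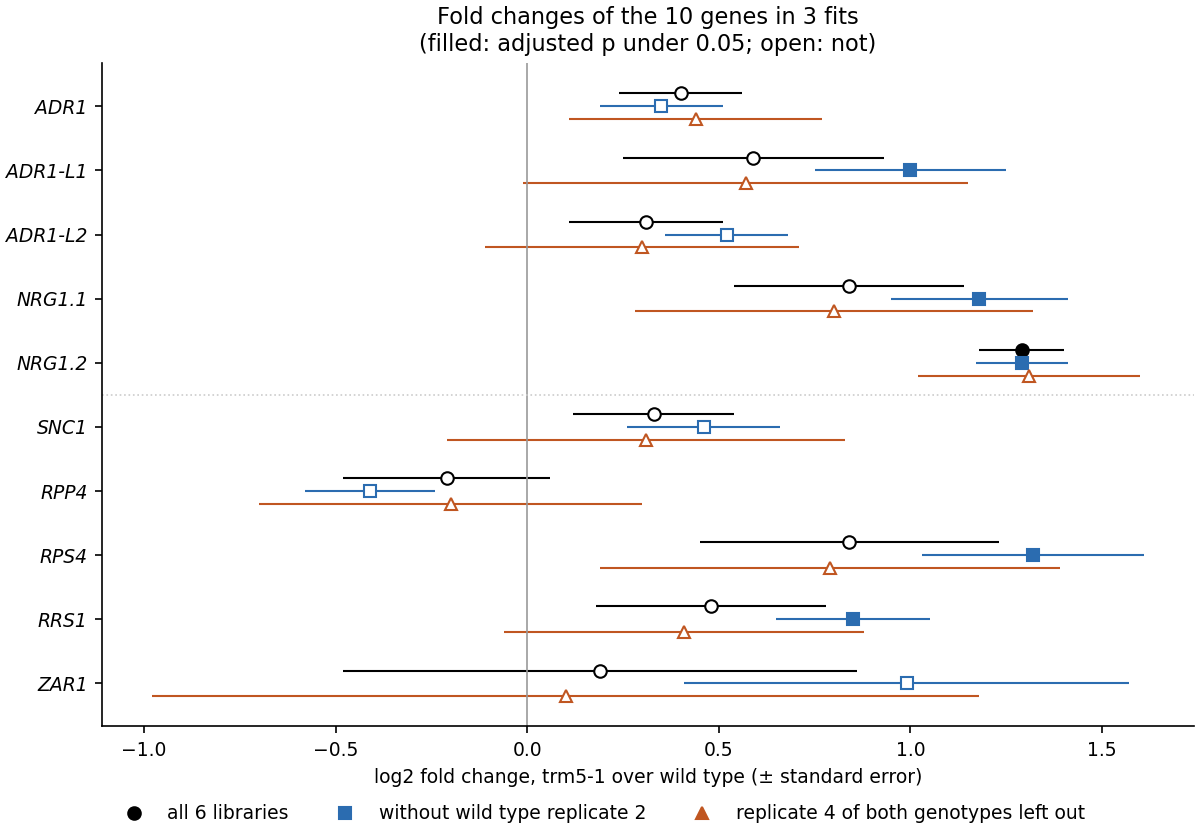
Log2 fold change of *trm5-1* over wild type with its standard error for each gene (helpers above the dotted line, sensors below) in 3 edgeR fits, filled where the adjusted p was under 0.05. *NRG1.2* stays between 1.29 and 1.31 in all 3, while *ZAR1* ranges from 0.10 to 0.99.

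Levels of different genes were compared per kilobase of exon. In wild type *ZAR1* was the most abundant of the 10 mRNAs, at 324 ± 255 CPM per kb (SD, n = 3), followed by *SNC1* at 68.8 ± 9.96, *RPP4* at 46.4 ± 14.6, *ADR1-L1* at 39.2 ± 17.4, *ADR1-L2* at 35.9 ± 8.22 and *NRG1.1* at 33.3 ± 12.6 CPM per kb. Then came *RPS4* at 17.2 ± 8.97, *RRS1* at 8.41 ± 3.35, *ADR1* at 7.97 ± 0.743 and *NRG1.2* at 6.97 ± 0.19 CPM per kb. Each gene overlapped its neighbour in this order over the wild type libraries, except that every *ZAR1* library was above every *SNC1* library. The highest mean was 46.5 times the lowest. In *trm5-1* *ZAR1* (370 ± 108 CPM per kb) and *SNC1* (86.4 ± 0.665) again led. *NRG1.1* was in the third place instead of the sixth with 59.4 ± 6.14 CPM per kb, *RPP4* in the sixth instead of the third with 40.2 ± 1.3, and *NRG1.2* above the last 2 with 17.0 ± 0.405, ahead of *RRS1* (11.7 ± 1.32) and *ADR1* (10.5 ± 1.59). The 3 *ADR1-L1* libraries (57.4 to 60.6 CPM per kb in *trm5-1*) lay inside the range of *NRG1.1* (53.1 to 65.4), and per kilobase of coding sequence *ADR1-L1* was above *RPP4* in wild type (66.6 against 54.2 CPM per kb), so these places are not firm.

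For 3 pairs of neighbouring or related genes the ratio within a library was taken, which does not depend on the scaling between libraries. The log2 ratio of *NRG1.1* over *NRG1.2* was 2.81, 1.62 and 2.21 for wild type replicates 2, 3 and 4 against 1.97, 1.63 and 1.87 for *trm5-1*, a difference of -0.39 (exact two-sided permutation test, p = 0.5, adjusted over the 3 pairs 0.5). The ratio of *SNC1* over *RPP4* was 1.71, 0.33 and 0.83 for wild type against 1.49, 1.44 and 1.42 for *trm5-1*, a difference of 0.49 (exact permutation p = 0.4, adjusted 0.5). Both of these ratios overlapped between the genotypes. The ratio of *RPS4* over *RRS1* was 0.62, 0.17 and 0.53 for wild type against 0.86, 0.90 and 0.84 for *trm5-1*. It did not overlap, and its difference of 0.43 had an exact permutation p of 0.1, the smallest that 3 against 3 libraries allow (adjusted 0.3).

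The gene whose profile over the 6 libraries was most like that of *NRG1.2*, by the mean absolute difference of centred log2(CPM + 1) levels, was *CRK32* (AT4G11480), which encodes a cysteine-rich receptor-like kinase (difference 0.0515). It is a gene of low level, with 0, 2 and 1 counts in wild type and 28, 42 and 31 counts in *trm5-1*, so the pseudocount sets much of this likeness. The most similar of the other 9 NLR genes was *NRG1.1*, at a difference of 0.313.

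The partners of the helpers and the genes below were read from lists chosen with earlier results of these data known. Their shares of called genes are therefore not independent of those results. In the EDS1 family with NDR1, 1 of 5 genes was called higher and none lower, with a median log2 fold change of 1.18. Of all genes tested 4.3% were called higher and 11.4% in either direction, and 1 called gene cannot set this list apart from them. At an unadjusted p under 0.05, 4 of the 5 were higher, where 32.7% of all genes passed in either direction. DESeq2 called 3 higher, where it called 8.86% of all genes higher. In 4 of the 5 every *trm5-1* library lay above every wild type library, as in 19.7% of all genes. The gene called by edgeR was *SAG101*, the lipase-like partner of EDS1 that acts with the NRG1 helpers, at 48.6, 27.8 and 39.5 CPM in wild type and 104, 105 and 102 CPM in *trm5-1* (log2 fold change 1.43, SE 0.22, adjusted p = 0.0259 by edgeR). *PAD4*, the partner that acts with the ADR1 helpers, stood at 68.2, 21.3 and 40.3 CPM in wild type and at 128, 96.4 and 112 CPM in *trm5-1*, with a log2 fold change of 1.38 (SE 0.41, adjusted p = 0.0768). *EDS1*, which forms a dimer with either, stood at 145, 38.9 and 86.7 CPM against 188, 126 and 162 CPM (0.81, SE 0.47, adjusted p = 0.270). Wild type replicate 2 was the highest wild type library of all 3 genes, as it was for 7 of the 10 NLR genes.

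No gene was called by edgeR among the 7 NLR chaperones (SGT1, RAR1 and HSP90 proteins, which fold NLRs, median log2 fold change 0.18), the 6 guarded proteins and decoys (such as RIN4 and the ZAR1 partner ZED1, median 0.26), the 2 tested of 4 RPW8 homologues (median 1.33) or the 12 tested of 13 regulators of NLR level or activity (median 0.24). In these 4 lists 1 gene was higher (a chaperone) and 1 lower (a regulator) at an unadjusted p under 0.05, which 32.7% of all genes had in either direction. DESeq2 called 1 chaperone and 1 RPW8 homologue higher and 1 regulator lower, where it called 8.86% of all genes higher. The smallest adjusted p among the chaperones belonged to *HSP90.1*, at 142 CPM in wild type and 453 CPM in *trm5-1* (log2 fold change 1.67, SE 0.58, adjusted p = 0.103 by edgeR), and *TPR1*, a corepressor that works with SNC1, was at 61.1 against 44.3 CPM (-0.47, SE 0.14, adjusted p = 0.0798). Both were picked out after their values were seen.

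Among 34 other characterised NLR genes, 33 were tested, 3 were called higher (4.3% of all genes were) and none lower, and the median log2 fold change was 0.62. In 23 of the 33 every *trm5-1* library was above every wild type library, as in 19.7% of all genes. Besides *NRG1.3*, the called genes were *TN2*, which encodes a TIR protein without leucine-rich repeats, with 1, 3 and 6 counts in wild type and 27, 83 and 80 counts in *trm5-1* (log2 fold change 4.08, SE 0.56, adjusted p = 0.0230 by edgeR), and *RFL1*, which encodes a CC protein (7.19, 4.64 and 5.46 CPM against 13.5, 11.1 and 13.5 CPM, log2 fold change 1.15, adjusted p = 0.0334). *NRG1.3* and *TN2* passed the filter on low counts only because of the *trm5-1* libraries, so they could only be called higher.

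The annotation names 154 genes as NLRs, of which 151 are in the count table and 125 were tested. In that family 13 genes were called higher and 1 lower, with a median log2 fold change of 0.54, and 24 fold changes were below 0. Without the 7 members that carry such a name, 12 of 118 were called higher (10.2%), against 4.3% of all genes. With at least 10 counts required in every library, 7 of those family genes were called higher, and 609 of all 17207 genes then tested. How many family genes were tested under that filter was not counted, so the 7 genes give no share. By class, 6 of 83 TIR genes, 3 of 22 CC genes and 4 of 20 genes without a stated class were called higher. The gene called lower was AT4G09420 of the TIR class, with 3.04, 3.86 and 3.74 CPM in wild type and 1.08, 0.725 and 1.63 CPM in *trm5-1* (log2 fold change -1.63, SE 0.35, adjusted p = 0.0412 by edgeR). The most one-sided counts were those of the TIR gene AT5G18350, at 0, 1 and 1 for wild type against 56, 546 and 316 for *trm5-1*, so it passed the filter on low counts only because of *trm5-1* and could only be called higher. *TN2*, AT5G38350 (1, 4 and 4 counts in wild type) and AT4G11170 (18, 2 and 23 counts) also passed it only because of *trm5-1*. The share of 10.2% thus includes genes that could only be called higher. AT4G09420, AT5G18350, AT5G38350 and AT4G11170 were picked out after their values were seen.

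**Figure D4:**
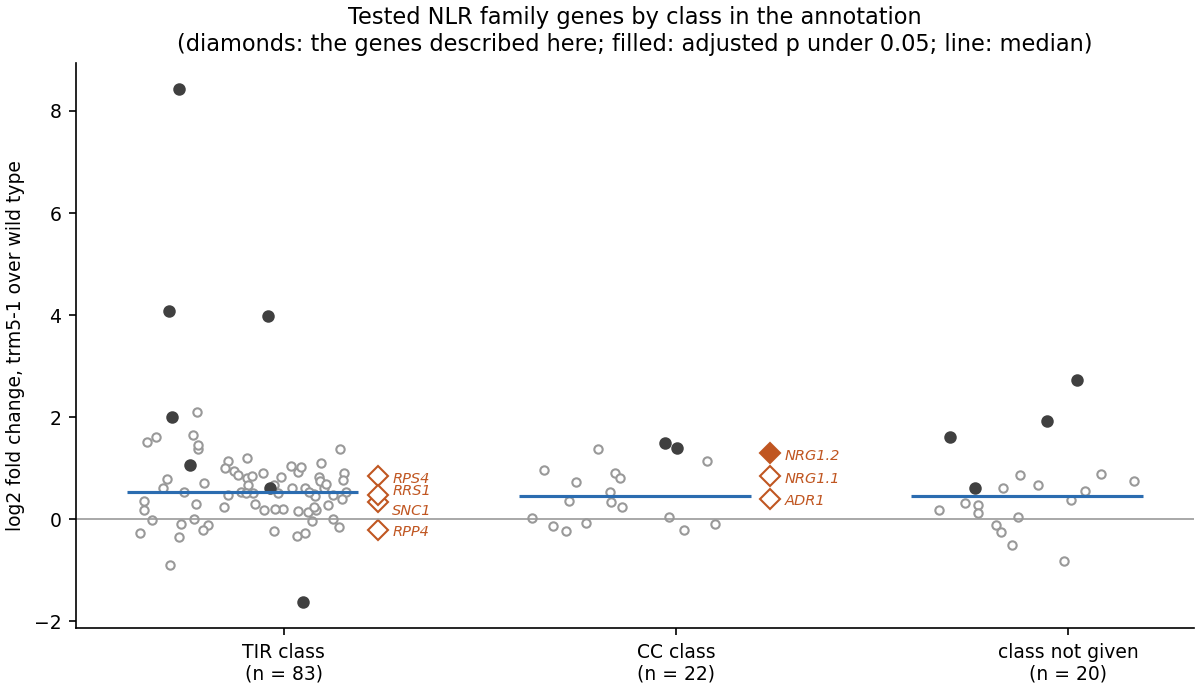
Log2 fold change of *trm5-1* over wild type for 83 TIR, 22 CC and 20 unclassified NLR genes that were tested, with filled symbols for an adjusted p under 0.05, a blue line for the median and diamonds for the 7 genes described here that the annotation names as NLRs. *NRG1.2* is the only filled diamond, and the topmost point is AT5G18350, whose fitted fold rests on at most 1 count per wild type library.

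Downstream of the receptors, 7 of 10 genes of salicylic acid and systemic resistance were called higher and none lower, with a median log2 fold change of 3.37. In all 10 every *trm5-1* library was above every wild type library. Of all genes tested 4.3% were called higher and 19.7% had such a gap. This list too was chosen with earlier results of these data known, so its shares are not independent of them. *PR1*, the usual marker of salicylic acid signalling, rose from 5.56, 1.2 and 2.69 CPM in wild type to 162, 196 and 171 CPM in *trm5-1* (log2 fold change 5.84, SE 0.60, adjusted p = 0.0144 by edgeR). *FMO1*, which makes the systemic signal N-hydroxypipecolic acid, had 2, 2 and 7 counts in wild type and 121, 1042 and 584 in *trm5-1* (log2 fold change 7.08, SE 0.94, adjusted p = 0.0211). *FMO1* passed the filter on low counts only because of the *trm5-1* libraries, so it could only be called higher. *ICS1*, the main enzyme of pathogen-induced salicylic acid synthesis, stood at 59.3, 20.3 and 35.1 CPM against 265, 358 and 288 CPM (2.99, SE 0.42, adjusted p = 0.0236). The log2 fold change of *NRG1.2*, the highest of the 10 NLR genes, equalled that of *CBP60g* (1.29) and was below those of the other 9 output genes.

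Over the 8 lists 11 of 81 tested genes were called higher (4.3% of all genes were) and none lower by edgeR. At an unadjusted p under 0.05 the same fit gave 30 higher and 1 lower, 31 of 81 where 32.7% of all genes passed, and DESeq2 called 28 higher, where it called 8.86% of all genes higher, and 1 lower. The 11 genes include *NRG1.3*, *TN2* and *FMO1*, which passed the filter on low counts only because of *trm5-1* and could only be called higher. All 8 lists were chosen with earlier results of these data known, so these shares are not independent of them. Single libraries moved the calls: without wild type replicate 4, *trm5-1* replicate 3 or *trm5-1* replicate 4 none of the list genes and none of the other NLR family genes was called higher by edgeR. Without wild type replicate 2, 44 list genes and 52 other NLR family genes were, in a fit that called 16.2% of all genes higher.

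**Figure D5:**
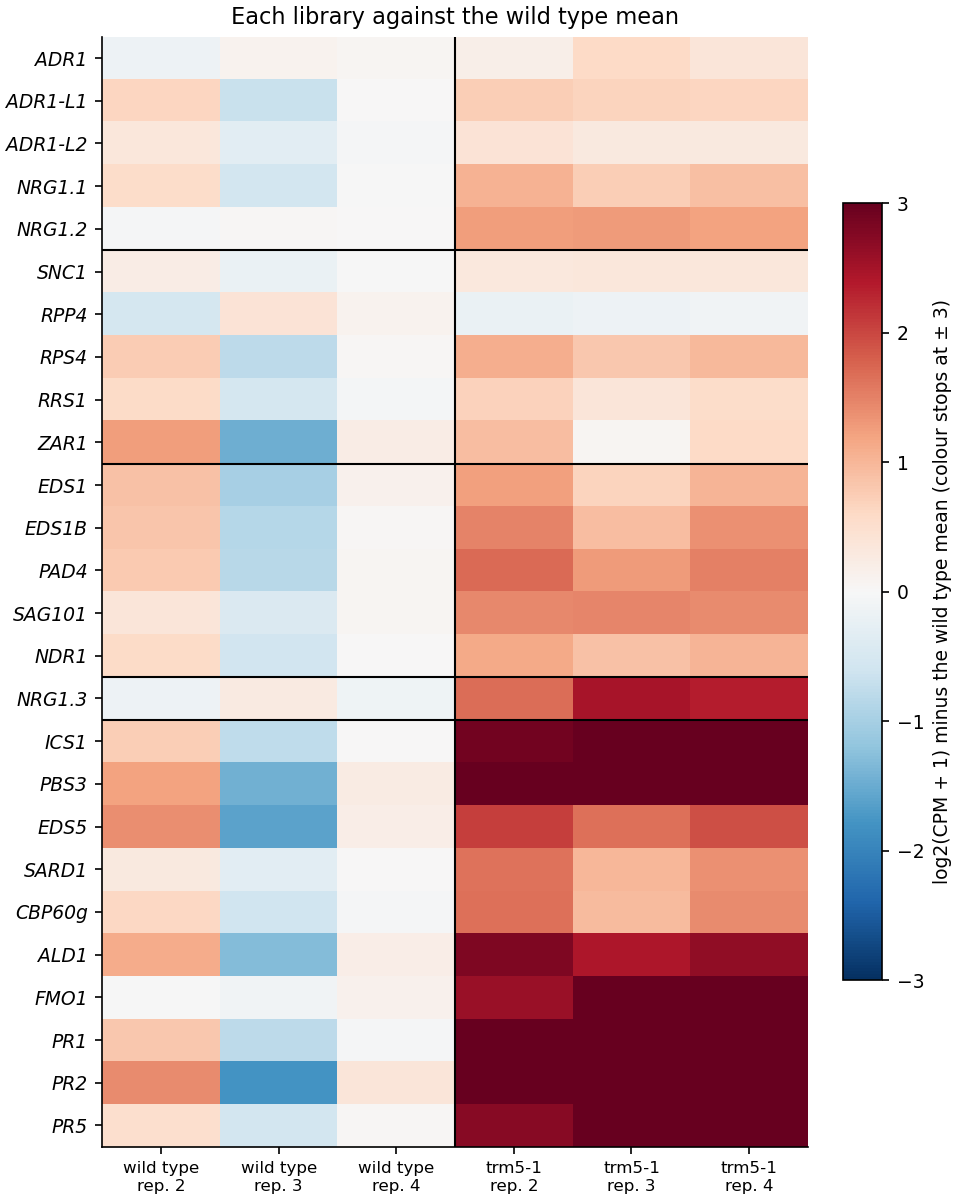
Log2(CPM + 1) of each library minus the mean of the 3 wild type libraries (colour, from blue below to red above, ending at ± 3) for the helpers, the sensors, the EDS1 family with *NDR1*, *NRG1.3* and 10 immune output genes, from top to bottom. Wild type replicate 2 is redder than replicate 3 in most rows, *NRG1.2* is even within each genotype, and the deepest red is among the output genes, where 7 of 10 were called.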

How the data were processed

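Leaf mRNA-seq of 3 wild type and 3 *trm5-1* libraries was analysed, grouped by genotype. The authors trimmed reads with Trim Galore 0.4.2, mapped them to TAIR10 with STAR 2.5.3 and deposited whole-number counts per gene from featureCounts, with its settings not given in the sources used here. They also deposited a normalized signal, the counts of each library divided by 1 number (0.589 to 1.26), used here in an alternative only. The tRNA files were not used. All columns of the count table were mapped to samples by the labels.

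Counts were tested with edgeR 4.0.16 (R 4.3.3): filterByExpr, TMM, quasi-likelihood fit, Benjamini-Hochberg adjustment over 19408 genes, threshold 0.05. The fits were run on simulated counts of independent libraries with large fold changes. That check does not cover small fold changes or a library close to a mixture of others, as replicate 4 is here. The standard error is the log2 fold change divided by the square root of F. CPM uses TMM library sizes. Library totals of 14954658 to 26927531 counts and a common biological coefficient of variation of 34.4% set the precision. Within-library ratios had exact permutation tests (scipy 1.17.1). Alternatives were DESeq2 1.42.0, RLE and upper quartile factors, 2 other filters, the replicate number as a block, limma 3.58.1 on log2 of the authors' normalized values (pseudocounts 1 and 0.1), each library left out, and replicate 4 of both genotypes left out.

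Names, positions, exon lengths and sequences come from NCBI RefSeq's TAIR10.1. The count table carries locus identifiers and no coordinates. Protein identities come from pairwise alignment of translated coding sequences (biopython 1.88). Named genes are the 10 members, up to 3 called genes per direction in each list, and the nearest profile to a called member, and others are marked as chosen after their values were seen, apart from partners of the members, marker and paralogue genes. The members and the lists were chosen with earlier results of these data known. Figures were drawn with matplotlib 3.10.9.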

Additional observations from a re-analysis of the deposited data

How the results depend on the processing

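Across the 15 alternatives *NRG1.2* was called in 10, and 9 of the 10 NLR genes were called in none or in 1 alone, the fit without wild type replicate 2. The count of NLR genes called higher was 1 with all libraries, 0 without replicate 4 of both genotypes, and 0 to 5 with 1 library left out. None was called lower in any alternative. Genes of the 8 lists called higher numbered 11 with all libraries, 28 by DESeq2, 8 with at least 10 counts required in every library, 0 without replicate 4 of both genotypes and 0 to 44 with 1 library left out. Those called lower numbered 0, 1 by DESeq2 and 0 to 1 with 1 library left out. Other NLR family genes called higher numbered 12 with all libraries, 30 by DESeq2, 7 with at least 10 counts required in every library, which leaves 17207 genes, 0 without replicate 4 of both genotypes and 0 to 52 with 1 library left out. Those called lower numbered 1, 2 by DESeq2, 0 without replicate 4 of both genotypes and 0 to 2 with 1 library left out. Of all genes, 4.3% were called higher with all libraries by edgeR and 8.86% by DESeq2. The fit without wild type replicate 2, which gave the counts of 5, 44 and 52, called 16.2% of all genes higher. With 1 library left out the log2 fold change of *RPP4* ran from -0.41 (without wild type replicate 2) to 0.02 (without wild type replicate 3), and that of *ZAR1* from -0.25 (without wild type replicate 3) to 0.99 (without wild type replicate 2), with -0.01 without *trm5-1* replicate 2. The difference in the log2 ratio ran from -0.68 to -0.09 for *NRG1.1* over *NRG1.2*, from 0.29 to 0.52 for *RPS4* over *RRS1* and from 0.18 to 0.87 for *SNC1* over *RPP4* with 1 library left out. The causes were not tested. Upper quartile factors moved the median over all genes by -0.12, and with them 9 of the 10 NLR genes had a log2 fold change above 0.

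Same-numbered libraries deviated together with correlations of -0.024, 0.000311 and 0.0674 over 19408 genes, so over all genes these values showed no pairing. They cannot exclude a shared batch, because replicate 4 is close to a mixture of the other libraries. In the edgeR fit with the replicate number as a block, standard errors rose for *NRG1.2* (0.11 to 0.13) and *SNC1* (0.21 to 0.22). They fell for every other NLR gene described here, for example *RPS4* (0.39 to 0.31) and *ZAR1* (0.67 to 0.48). Whether the replicate numbers pair the samples for these genes was not tested. With the replicate number as a block in edgeR, 0 NLR genes, 0 list genes and 0 other NLR family genes were called in either direction (*NRG1.2*: log2 fold change 1.29, adjusted p = 0.0962), and 0 of all genes were, although 5251 genes had an unadjusted p under 0.05.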
